A study of Homo sapiens with 12 samples.

Results

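The genes described are 10 regulators of the G1 phase of the cell cycle, chosen by symbol from the 25369 rows of each deposited table: the D cyclins CCND1, CCND2 and CCND3, their kinases CDK4 and CDK6, the inhibitors CDKN1B, CDKN2A and CDKN2C, and the pocket proteins RB1 and RBL1. RNA sequencing gave their levels in 2 human lines of diffuse large B cell lymphoma (DLBCL). OCI-Ly7 is labelled as the germinal centre B cell (GCB) type and TMD8 as the activated B cell (ABC) type. All 12 libraries came from cells expressing a doxycycline-inducible guide RNA (sgRNA) against PRMT5, an arginine methyltransferase. Each line was sampled after 0, 3 and 6 days in 20 ng/ml doxycycline, and each day has 2 libraries. The days were taken from the titles, the characteristics and the design text, since the treatment protocol gives different ones. Day 0 of each line was its only control. The groups hold no library with a non-targeting guide or with doxycycline alone, so the guide and the drug cannot be told apart, and the labels do not say where Cas9 came from or whether a line was a single clone. Nor do they say whether the libraries of a group came from separate cultures, so p-values measure the spread between these libraries, which may be technical.

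In G1 the D cyclins bind CDK4 and CDK6, and the active kinases phosphorylate RB1 and its relatives RBL1 (p107) and RBL2 (p130). This releases E2F factors, which switch on cyclin E and the genes of DNA replication. INK4 inhibitors, among them CDKN2A (p16INK4a) and CDKN2C (p18INK4c), bind CDK4 and CDK6 and keep D cyclins away, while the KIP inhibitor CDKN1B (p27) mainly blocks cyclin E with CDK2. CDKN2C is known for its role in plasma cell differentiation. The CDKN2A locus has 2 starts: transcripts from the upstream one encode p14ARF, which protects p53, and those from the downstream one encode p16INK4a. Loss of CDKN2A is common in the ABC type of DLBCL, where the neighbouring MTAP, an enzyme of methionine salvage that clears an inhibitor of PRMT5, can be lost with it.

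The 250 bases before the start of a gene were taken from RefSeq (GRCh38.p14) for 8 of the 10 members, with 14 starts in all. CCND1 and CCND2 were the other 2. Searched on both strands were the E-box CACGTG and the E2F strings TTTCCCGC, TTTCGCGC, TTTGCCGC and TTTGGCGC. These motifs do not overlap each other in the windows shown. Of 35116 promoter windows of the same length, 6.34% held the E-box and 2.79% held an E2F string. CDK4 and RBL1 are shown because their windows held more than 1 match, and both CDKN2A starts are shown because the deposited row merges their transcripts. Capitals mark the E-box in CDK4 and the E2F strings in RBL1, and every sequence runs 5′ to 3′ on the minus strand.
CDK4: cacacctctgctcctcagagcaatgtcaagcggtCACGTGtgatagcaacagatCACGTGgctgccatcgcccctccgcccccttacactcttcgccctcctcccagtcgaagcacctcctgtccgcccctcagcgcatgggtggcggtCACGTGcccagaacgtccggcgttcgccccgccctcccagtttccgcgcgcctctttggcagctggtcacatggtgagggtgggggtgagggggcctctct
RBL1: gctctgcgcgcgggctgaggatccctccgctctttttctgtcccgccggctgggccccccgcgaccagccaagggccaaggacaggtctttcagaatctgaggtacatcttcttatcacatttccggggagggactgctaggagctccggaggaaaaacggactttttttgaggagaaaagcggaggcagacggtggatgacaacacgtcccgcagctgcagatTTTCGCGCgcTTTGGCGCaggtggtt
CDKN2A upstream start: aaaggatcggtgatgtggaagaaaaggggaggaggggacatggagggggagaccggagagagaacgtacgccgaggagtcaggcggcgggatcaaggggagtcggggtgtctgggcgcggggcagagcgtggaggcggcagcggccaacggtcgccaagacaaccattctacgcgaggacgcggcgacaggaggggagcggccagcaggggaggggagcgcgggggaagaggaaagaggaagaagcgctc
CDKN2A downstream start: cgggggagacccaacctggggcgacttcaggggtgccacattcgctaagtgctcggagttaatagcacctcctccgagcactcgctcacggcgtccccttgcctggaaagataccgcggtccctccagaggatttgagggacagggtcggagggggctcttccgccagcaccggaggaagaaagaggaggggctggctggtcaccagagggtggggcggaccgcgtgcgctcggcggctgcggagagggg
The CDK4 window (chr12:57752311-57752560) held 3 E-boxes, which began 216, 196 and 101 bases before the start, and 0.535% of all windows held 2 or more. The RBL1 window (chr20:37095998-37096247) held 2 E2F strings, which began 26 and 16 bases before the start, and 0.122% of all windows held 2 or more. Neither CDKN2A window (chr9:21995325-21995574 and chr9:21974858-21975107) held one of these strings. They held 24 and 20 CpG sites, at a G and C content of 66.8% in both. The bases just after the upstream start matched no CDKN2A transcript of GENCODE v29, while those after the downstream start did. Over the members, 3 of 14 windows held the E-box and 1 of 14 held an E2F string. RB1 had 1 window in this set (chr13:48476200-48476449), which held 0 CpG sites at a G and C content of 36.8%. Whether this window lies at the main start of RB1 was not checked, so its values describe this window alone. Starts outside these 14 windows were not searched, so the counts do not cover every promoter of a member. A match is a description of letters and not a site of binding.

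Levels are FPKM, fragments per kilobase of gene scaled to library size, as the authors deposited them, and they can be set against each other between genes. Libraries summed to 397477 to 467844 FPKM, with 10092 to 11021 genes at 1 FPKM or more. PRMT5, the target of the guide, had 37.9 and 46.9 FPKM in the day 0 libraries of OCI-Ly7, 29.3 and 32.1 FPKM in those of day 3 and 21 and 19.2 FPKM in those of day 6. In TMD8 it had 64.8 and 60.5 FPKM in the day 0 libraries, 41.3 and 42 FPKM in those of day 3 and 49.6 and 54.7 FPKM in those of day 6. All later libraries were below day 0 in both lines, and the day 6 change was -1.04 in OCI-Ly7 (adjusted p = 0.0345) and -0.26 in TMD8 (adjusted p = 0.0262), where median-ratio scaling, described next, turned its sign to 0.10 (adjusted p = 0.201). Edits by a guide need not lower the transcript. Of the B cell markers, MS4A1 lay at 41.9 to 69 FPKM in OCI-Ly7 and 82.5 to 130 FPKM in TMD8, and CD79A at 219 to 351 FPKM in OCI-Ly7 and 196 to 289 FPKM in TMD8. Of 5 T and NK cell markers, CD3D, CD3E and CD3G were listed at 0 in every library, and CD8A and NKG7 were at most at 0.766 FPKM. LYZ was listed at 0 in every library too, while the macrophage marker CD68 lay at 0.974 to 1.63 FPKM in OCI-Ly7 and 39.5 to 66.7 FPKM in TMD8. EPCAM, an epithelial marker, lay at 3.90 to 5.91 FPKM in OCI-Ly7 and was listed at 0 in TMD8. Of the 5 GCB markers, MME, BCL6 and MYBL1 followed the labels, but LMO2 and SERPINA9 were at 0 to 0.144 FPKM in OCI-Ly7 and at 4.31 to 40 FPKM in TMD8, which goes against them. Of the ABC markers, CCND2, IRF4, FUT8 and ENTPD1 were higher in every TMD8 library than in any OCI-Ly7 library. BATF and PIM2 overlapped between the lines. BATF lay at 130 to 214 FPKM in OCI-Ly7 and 155 to 211 FPKM in TMD8, and PIM2 at 181 to 239 FPKM in OCI-Ly7 and 150 to 239 FPKM in TMD8. The pre-ribosomal RNA row RNA45S5 was higher in all later libraries: 14300 to 20500 FPKM later against 10400 to 11200 FPKM at day 0 in OCI-Ly7, and 17600 to 20500 FPKM later against 5220 to 7950 FPKM at day 0 in TMD8. Its part in the results was not tested.

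Changes are differences of log2(FPKM + 1), tested with limma over all genes with a mean of at least 1 FPKM and called at an adjusted p under 0.05. The median change of all genes tested was -0.12 in OCI-Ly7 and -0.27 in TMD8 at day 3, and -0.13 in OCI-Ly7 and -0.31 in TMD8 at day 6. Counts of calls among the members and the related lists are therefore given with FPKM as deposited and again after median-ratio scaling. This scaling brings the median gene of each library to the same level. Some single changes are given with FPKM as deposited only, and a change with no scale named is of that kind. The filter kept 8 members in OCI-Ly7, without CCND1 and CCND2, and 9 in TMD8, without CDKN2A. The comparison of the lines at day 0 kept genes that passed in either line, which 3 members did in 1 line alone. In these bulk samples, fewer cells of a type and less RNA per cell cannot be told apart.

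Before doxycycline the lines differed in the level of CDK4, CDKN1B and CDKN2C, higher in OCI-Ly7, and of RB1 and RBL1, lower in OCI-Ly7. These are 5 of the 7 members that passed the filter in both lines, called on both scales, while 66.6% of the genes that passed in both lines were called as deposited and 69.7% after median-ratio scaling. The members' share is near that of all genes. The lines were deposited separately, so a difference of line and one of processing between the deposits cannot be told apart. CCND1, CCND2 and CDKN2A passed through 1 line alone, where they are high, so their differences between the lines are given as levels with no test; with such genes included, 70.1% of all genes were called, and 72.6% after scaling. CCND3 and CDK6 missed the threshold, with differences of -0.12 (95% interval -0.338 to 0.095) and -0.05 (95% interval -0.255 to 0.15).

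**Figure D1:**
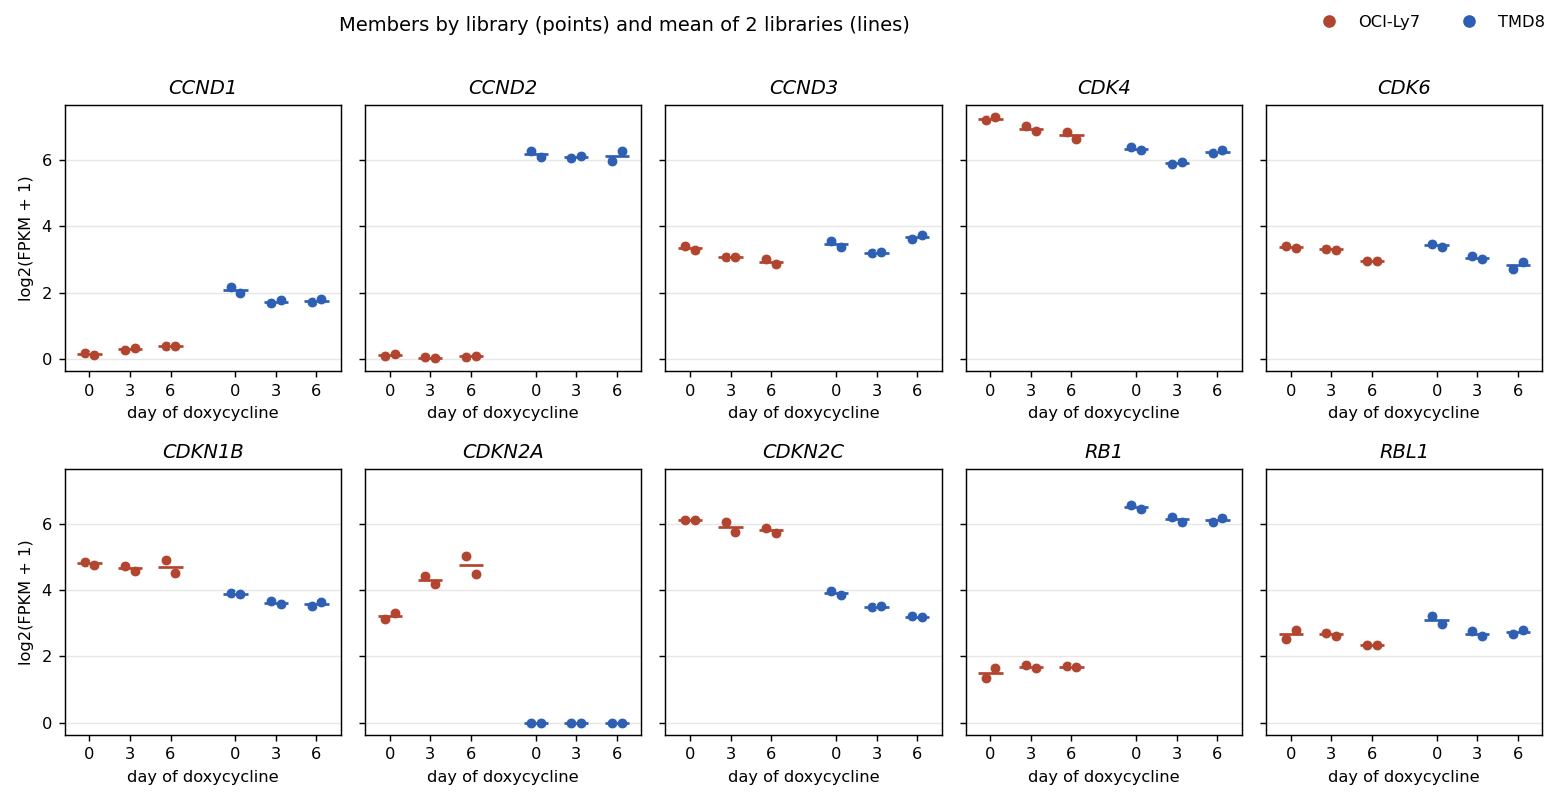
Level of each of the 10 members in each of the 12 libraries, on a log2(FPKM + 1) axis, by day of doxycycline, with OCI-Ly7 in red left of TMD8 in blue; points are libraries and lines are means of 2 libraries. CCND2 and RB1 stand high in TMD8 and low in OCI-Ly7, CDKN2A and CDKN2C stand higher in OCI-Ly7, and CDKN2A is at 0 in all 6 TMD8 libraries.

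Ranked by level at day 0, CDK4 came first in OCI-Ly7 with 151 ± 5.45 FPKM (SD, n = 2), ahead of CDKN2C with 68.2 ± 0.42 FPKM and CDKN1B with 27.0 ± 1.15 FPKM. CDK6, CCND3 and CDKN2A followed at 9.37 ± 0.2, 9.15 ± 0.691 and 8.36 ± 0.836 FPKM. The libraries of CCND3 overlapped with those of both CDK6 and CDKN2A, so that this order is within their spread. RBL1 at 5.34 ± 0.839 and RB1 at 1.86 ± 0.425 FPKM came next. CCND1 at 0.11 ± 0.0412 and CCND2 at 0.0821 ± 0.0345 FPKM were last and overlapped. In TMD8 the order began with RB1 at 88.8 ± 5.36 FPKM, CDK4 at 79.7 ± 3.62 FPKM and CCND2 at 71.5 ± 5.75 FPKM, with no overlap between them. CDKN2C at 13.9 ± 0.877 and CDKN1B at 13.8 ± 0.0608 FPKM overlapped, as did CCND3 at 10.1 ± 1.02 and CDK6 at 9.76 ± 0.499 FPKM. RBL1 at 7.62 ± 1.02 FPKM and CCND1 at 3.22 ± 0.383 FPKM closed the order, with CDKN2A listed at 0.

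The 2 lines expressed different D cyclins. CCND2, the D cyclin induced by B cell receptor signals and itself among the ABC markers used here, lay between 0.026 and 0.106 FPKM in the 6 OCI-Ly7 libraries and between 61.5 and 75.6 FPKM in the 6 TMD8 libraries. At day 0 the difference of mean log2(FPKM + 1) was -6.06. CCND1, the D cyclin of mantle cell lymphoma, lay between 0.0812 and 0.318 FPKM in OCI-Ly7 and between 2.23 and 3.49 FPKM in TMD8, with a day 0 difference of -1.92 on the same scale. CCND3, the D cyclin of germinal centre B cells, was the D cyclin that differed least between the lines, with 6.3 to 9.64 FPKM in OCI-Ly7 and 8.12 to 12.3 FPKM in TMD8. CCND3 made up 94.1% to 98.0% of the D cyclin FPKM in OCI-Ly7 libraries and 10.6% to 15.1% in TMD8 libraries, where CCND2 made up 81.9% to 86.4%. The sum of the 3 D cyclins was 6.69 to 9.84 FPKM in OCI-Ly7 and 75.1 to 90.1 FPKM in TMD8. Set against CDK4 and CDK6 together, this came to a ratio of 0.0539 to 0.0634 in OCI-Ly7 and 0.921 to 1.18 in TMD8.

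The day 6 change of CCND3 differed between the 2 lines, though neither change by itself was called with FPKM as deposited. In OCI-Ly7 it had 9.64 and 8.66 FPKM at day 0, 7.46 and 7.38 FPKM at day 3 and 7.05 and 6.3 FPKM at day 6. Both day 6 libraries lay below all earlier ones, with a change of -0.40 (SE 0.103, adjusted p = 0.0603) and, after median-ratio scaling, of -0.27 (adjusted p = 0.11). In TMD8 it had 10.8 and 9.33 FPKM at day 0, 8.12 and 8.38 FPKM at day 3 and 11.3 and 12.3 FPKM at day 6. Both day 6 libraries lay above all earlier ones. The change from day 0 was 0.21 (SE 0.0937, adjusted p = 0.0956), and after median-ratio scaling CCND3 rose by 0.55 (SE 0.0666, adjusted p = 0.00771). From day 3 to day 6 CCND3 rose in TMD8 by 0.47 (SE 0.0937, adjusted p = 0.04) and by 0.53 after scaling (adjusted p = 0.0186). The day 6 change in OCI-Ly7 minus that in TMD8 was -0.62 (SE 0.137, adjusted p = 0.0143), and -0.77 after scaling (adjusted p = 0.0026). Without TMD8 day 0 replicate 2 it was -0.52 (adjusted p = 0.0543), and with each other library left out it was called. The rise from day 3 in TMD8 was not called with any 1 of its 6 libraries left out, at 0.41 to 0.52 (adjusted p 0.0632 to 0.175).

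CCND2 in TMD8 had 75.6 and 67.4 FPKM at day 0, 65.9 and 68.3 FPKM at day 3 and 61.5 and 75.4 FPKM at day 6. The groups overlapped, and the day 6 change was -0.07 (95% interval -0.334 to 0.2, adjusted p = 0.62). After median-ratio scaling its sign turned, to 0.29 (SE 0.0801, adjusted p = 0.0454). CCND1 in TMD8 had 3.49 and 2.94 FPKM at day 0, 2.23 and 2.41 FPKM at day 3 and 2.27 and 2.48 FPKM at day 6. All later libraries lay below both day 0 libraries, and CCND1 fell at day 3 (by 0.34, adjusted p = 0.0456) and at day 6 (by 0.32, adjusted p = 0.0442). After scaling the changes were -0.12 at day 3 (adjusted p = 0.618) and -0.05 at day 6 (adjusted p = 0.679). Neither fall was called without a day 0 library of TMD8 (adjusted p 0.0647 to 0.251), and that of day 6 was called in none of the 6 fits that leave out a library. In OCI-Ly7, where it was below the filter, CCND1 was listed at 0.14 and 0.0812 FPKM at day 0, 0.211 and 0.256 FPKM at day 3 and 0.304 and 0.318 FPKM at day 6, with no overlap between the days and no test. CCND2 was listed there at 0.0576 and 0.106 FPKM at day 0, 0.037 and 0.026 FPKM at day 3 and 0.0429 and 0.0742 FPKM at day 6, also below the filter and with overlap.

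CDK4, the more abundant of the 2 kinases in both lines, was higher in OCI-Ly7 than in TMD8 in every library. In OCI-Ly7 it had 147 and 155 FPKM at day 0, 129 and 116 FPKM at day 3 and 114 and 98.7 FPKM at day 6. The 3 days did not overlap, and CDK4 fell at day 6 by 0.51 (SE 0.113, adjusted p = 0.0461), or by 0.36 with median-ratio scaling (SE 0.0738, adjusted p = 0.0405). In TMD8 CDK4 had 82.3 and 77.1 FPKM at day 0, 57.7 and 59.8 FPKM at day 3 and 73.1 and 77.5 FPKM at day 6. There the day 3 libraries were the lowest, and the day 6 libraries overlapped with day 0. It fell at day 3 in TMD8 by 0.43 (SE 0.0657, adjusted p = 0.0212), where the scaled change was -0.13 (adjusted p = 0.4), and rose from day 3 to day 6 by 0.35 (SE 0.0657, adjusted p = 0.0338), or by 0.41 after scaling (adjusted p = 0.02). Its day 6 change from day 0 in TMD8 was -0.08 (adjusted p = 0.322) with FPKM as deposited, and 0.28 (SE 0.0537, adjusted p = 0.0195) after scaling, so that the sign turned. The change at day 6 in OCI-Ly7 minus that in TMD8 was -0.43 (SE 0.127, adjusted p = 0.0397), and -0.59 after scaling (SE 0.0815, adjusted p = 0.00192). With a library left out, this difference was called in 3 of 12 fits, those without OCI-Ly7 day 3 replicate 1, day 3 replicate 2 or day 6 replicate 1, and it lay between -0.53 and -0.33. The fall in OCI-Ly7 was not called with any 1 of its 6 libraries left out, at -0.61 to -0.41 (adjusted p 0.0517 to 0.281). The rise from day 3 in TMD8 was likewise lost with each library left out, at 0.31 to 0.39 (adjusted p 0.0624 to 0.161). CDK4 shares exon sequence with TSPAN31 on the opposite strand, and the library kit is not stated to mark strand. TSPAN31 lay at 3.55 to 8.44 FPKM in OCI-Ly7 and 4.51 to 8.08 FPKM in TMD8.

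CDK6 differed little between the lines at day 0 and was lower at day 6 in both. In OCI-Ly7 it had 9.51 and 9.23 FPKM at day 0, 9.02 and 8.76 FPKM at day 3 and 6.75 and 6.81 FPKM at day 6. In TMD8 it had 10.1 and 9.41 FPKM at day 0, 7.57 and 7.08 FPKM at day 3 and 5.56 and 6.66 FPKM at day 6. In both lines the 3 days ran downward with no overlap. CDK6 fell at day 6 in OCI-Ly7 by 0.41 (SE 0.0863, adjusted p = 0.0425), and its change after median-ratio scaling was -0.28 (SE 0.0765, adjusted p = 0.067). In TMD8 it fell by 0.60 (SE 0.103, adjusted p = 0.00571), and by 0.28 after scaling (SE 0.07, adjusted p = 0.0369). The difference between the 2 day 6 changes was 0.19 (95% interval -0.105 to 0.478, adjusted p = 0.303). The OCI-Ly7 fall was lost without either day 0 library (-0.39, adjusted p = 0.176, and -0.43, adjusted p = 0.26) and without either day 6 library (-0.41, adjusted p = 0.122, and -0.42, adjusted p = 0.166). The TMD8 fall was called with each of the 6 libraries left out, at -0.71 to -0.49.

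The balance of CDK4 to CDK6, a ratio that no scaling of a library moves, was higher at day 6 in TMD8. It was 8.14 and 8.2 on day 0, 7.63 and 8.45 on day 3 and 13.1 and 11.6 on day 6, so that both day 6 libraries lay above the other 4. The OCI-Ly7 values were 15.5 and 16.8 on day 0, 14.3 and 13.2 on day 3 and 16.8 and 14.5 on day 6, with overlap. These ratios were not tested.

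**Figure D2:**
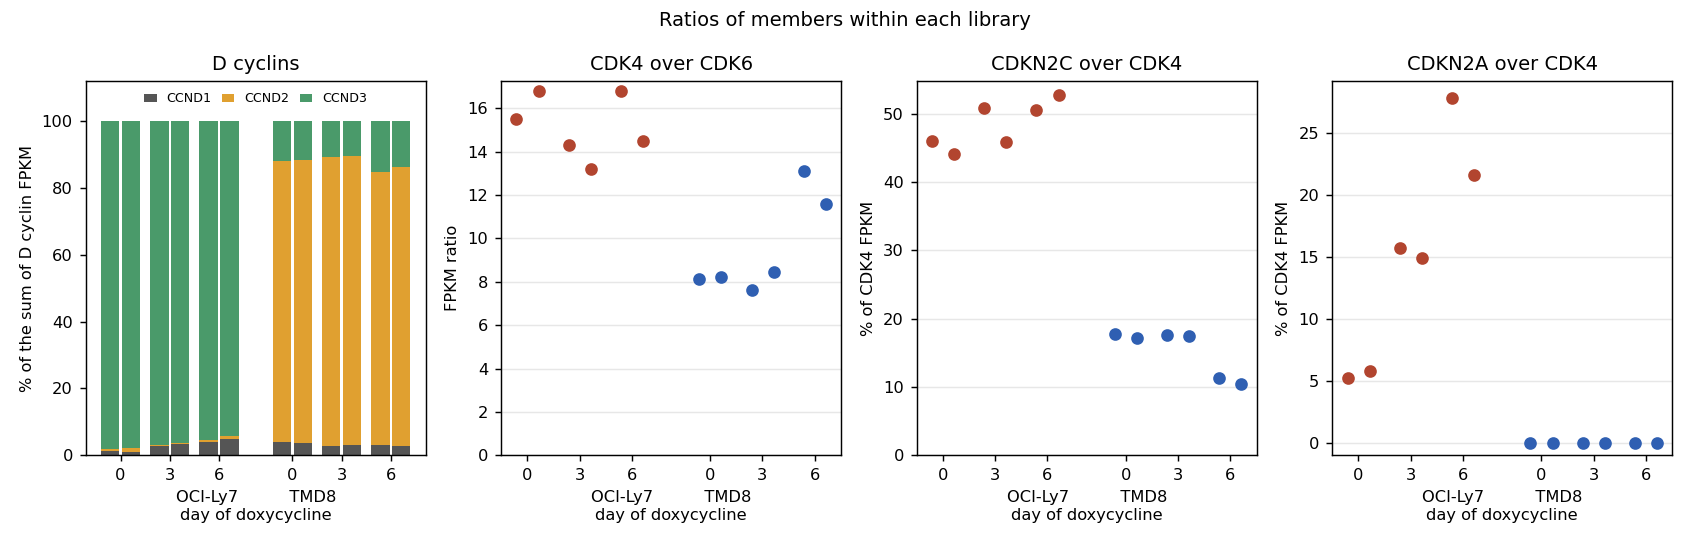
Ratios of members within each library, by day of doxycycline, with OCI-Ly7 left of TMD8: the shares of the 3 D cyclins in their summed FPKM (stacked bars, 1 per library), and, with 1 point per library in red for OCI-Ly7 and blue for TMD8, CDK4 over CDK6, CDKN2C as a percentage of CDK4, and CDKN2A as a percentage of CDK4. CCND3 fills the OCI-Ly7 bars and CCND2 the TMD8 bars, CDKN2C over CDK4 is lower at day 6 in TMD8, and CDKN2A over CDK4 is 21.6% and 27.8% at day 6 in OCI-Ly7.

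CDKN2A showed the largest tested log2 change of any member in either line. In OCI-Ly7 it had 7.76 and 8.95 FPKM at day 0, 20.2 and 17.2 FPKM at day 3 and 31.5 and 21.3 FPKM at day 6. The 3 days did not overlap. CDKN2A rose at day 6 by 1.53 (SE 0.2, 95% interval 1.033 to 2.027, adjusted p = 0.0345), a 2.89-fold change in FPKM + 1, and by 1.67 with median-ratio scaling (SE 0.174, adjusted p = 0.0235). At day 3 the change was 1.08 (SE 0.2, unadjusted p = 0.00203, adjusted p = 0.618). The day 6 call was lost without either day 0 library (1.44, adjusted p = 0.124, and 1.62, adjusted p = 0.226) and without day 6 replicate 1 (1.26, adjusted p = 0.0656). As a share of CDK4 FPKM in the same library, CDKN2A came to 5.27% and 5.78% in the day 0 libraries, 15.7% and 14.9% in those of day 3, and 27.8% and 21.6% in those of day 6. Over CDKN2C the ratio was 0.114 and 0.131 on day 0, then 0.309 and 0.325 on day 3, then 0.548 and 0.41 on day 6. The row cannot tell p16INK4a from p14ARF, and it shares exon sequence with CDKN2B-AS1 on the opposite strand, which lay at 0.156 to 0.418 FPKM in OCI-Ly7.

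In TMD8 CDKN2A was listed at 0 in all 6 libraries, and so were the rows next to it. The rows within 1 Mb of CDKN2A, in RefSeq's order, were chosen for display after the value of CDKN2A was seen. Of these 29 rows, 4 were at 0 in every TMD8 library and above 0 in every OCI-Ly7 library: MTAP, CDKN2A, CDKN2B-AS1 and CDKN2B, all next to one another save for CDKN2A-AS1. MTAP lay at 6.58 to 8.72 FPKM in OCI-Ly7 and at 0 in TMD8. CDKN2B, the INK4 inhibitor p15INK4b, lay at 0.159 to 0.605 FPKM in OCI-Ly7 and at 0 in TMD8. The nearest gene with reads in TMD8 was KLHL9, 11 rows from CDKN2A, at 6.74 to 9.97 FPKM in OCI-Ly7 and 7 to 11.1 FPKM in TMD8. The rows between KLHL9 and MTAP, mostly interferon genes, were at 0 in both lines, as were the 2 rows on the far side, DMRTA1 and LINC01239. In all, 9673 rows were at 0 in every TMD8 library, and 34 of these had at least 5 FPKM in every OCI-Ly7 library. The files hold no DNA data, and a 0 in them says only that the row is listed at 0.

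**Figure D3:**
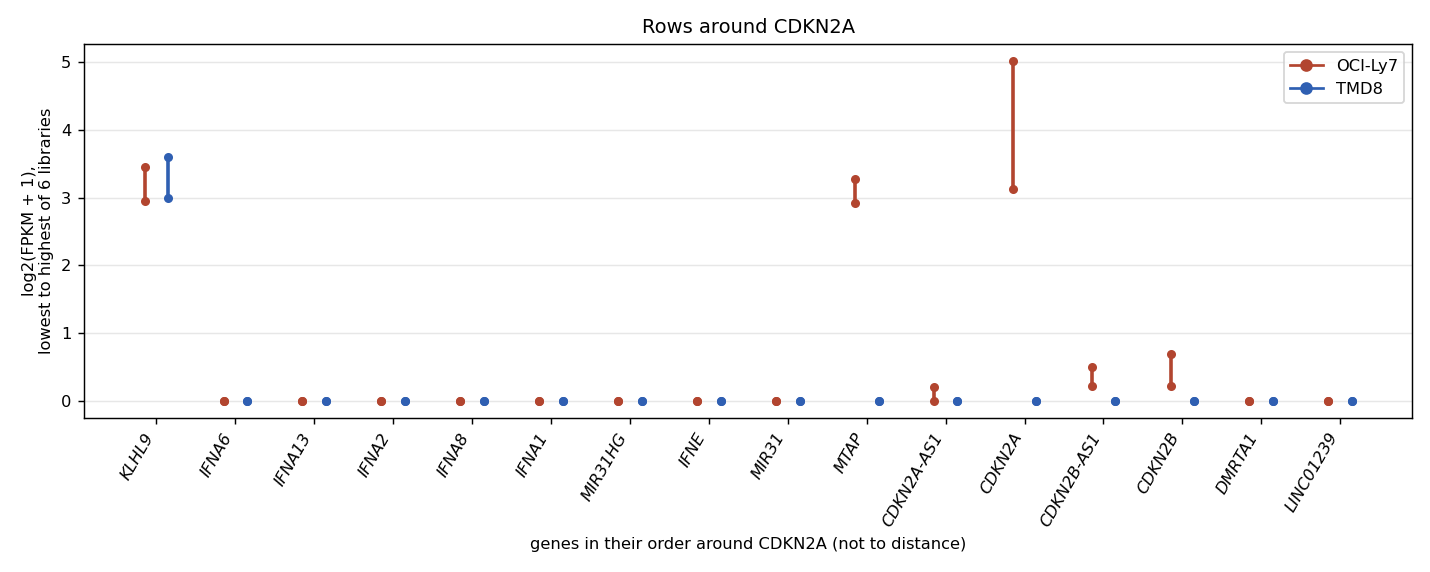
Lowest and highest level over the 6 libraries of each line, on a log2(FPKM + 1) axis, for CDKN2A and 15 rows around it in their order on the chromosome, OCI-Ly7 left of TMD8 at each row. MTAP, CDKN2A, CDKN2B-AS1 and CDKN2B are above 0 in OCI-Ly7 and at 0 in TMD8, while KLHL9 has like levels in both lines.

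CDKN2C was the second most abundant member in OCI-Ly7, with 67.9 and 68.5 FPKM at day 0, 65.5 and 53.1 FPKM at day 3 and 57.5 and 52 FPKM at day 6. All later libraries lay below both day 0 libraries, but the day 6 change of -0.31 missed the threshold (95% interval -0.633 to 0.006, adjusted p = 0.152). In TMD8 CDKN2C had 14.5 and 13.3 FPKM at day 0, 10.1 and 10.4 FPKM at day 3 and 8.26 and 8.07 FPKM at day 6, with no overlap between the 3 days. It fell at day 6 by 0.70 (SE 0.0774, adjusted p = 0.00232), or by 0.37 with median-ratio scaling (SE 0.0694, adjusted p = 0.0186), and with each library left out in turn it was called, at -0.76 to -0.64. As a share of CDK4 FPKM in TMD8, CDKN2C made up 17.7% and 17.2% in the day 0 libraries, 17.6% and 17.4% in those of day 3 and 11.3% and 10.4% in those of day 6. In OCI-Ly7 this share was 46.1% and 44.2% on day 0, 50.8% and 45.9% on day 3 and 50.6% and 52.7% on day 6. The difference between the day 6 changes, OCI-Ly7 minus TMD8, was 0.39 (95% interval 0.055 to 0.72, adjusted p = 0.0833), and 0.25 after scaling (adjusted p = 0.0715). It was called without OCI-Ly7 day 3 replicate 1 (adjusted p = 0.0309) or replicate 2 (adjusted p = 0.0307).

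CDKN1B was called in TMD8 with FPKM as deposited but not after scaling. In OCI-Ly7 it had 27.8 and 26.2 FPKM at day 0, 25.4 and 22.9 FPKM at day 3 and 29.1 and 21.6 FPKM at day 6. The days overlapped, with a day 6 change of -0.10 (95% interval -0.493 to 0.285, adjusted p = 0.669). In TMD8 it had 13.9 and 13.8 FPKM at day 0, 11.6 and 11 FPKM at day 3 and 10.4 and 11.4 FPKM at day 6. It fell at day 6 by 0.32 (SE 0.0786, adjusted p = 0.0171), close to the median change of all genes there, and after scaling the change was 0.02 (adjusted p = 0.82). The call was lost without either day 0 library (-0.31, adjusted p = 0.0943, and -0.32, adjusted p = 0.0717) and without day 6 replicate 1 (-0.25, adjusted p = 0.0584).

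RB1 differed between the lines by -4.98 at day 0 (SE 0.112, adjusted p = 2.65e-09); with median-ratio scaling this was -4.93. In OCI-Ly7 it had 1.56 and 2.16 FPKM at day 0, 2.31 and 2.11 FPKM at day 3 and 2.26 and 2.18 FPKM at day 6, all close together. In TMD8 it had 92.6 and 85 FPKM at day 0, 73 and 65.4 FPKM at day 3 and 65.8 and 71.4 FPKM at day 6, and all later libraries lay below day 0. RB1 fell at day 6 in TMD8 by 0.37 (SE 0.0846, adjusted p = 0.0136), and after scaling its change was -0.01 (adjusted p = 0.925). Its day 6 change in OCI-Ly7 was 0.18 (95% interval -0.164 to 0.526, adjusted p = 0.397). In OCI-Ly7 none of the 6 libraries left out brought a call. The difference of the day 6 changes, OCI-Ly7 minus TMD8, was 0.55 (SE 0.159, adjusted p = 0.0362) with FPKM as deposited, and 0.33 (adjusted p = 0.0778) after scaling. It was lost without 7 of the 12 libraries: either day 0 or either day 6 library of TMD8 (0.49, 0.61, 0.49 and 0.61, adjusted p 0.0504 to 0.128), OCI-Ly7 day 0 replicate 1 (0.40, adjusted p = 0.0978) and either day 6 library of OCI-Ly7 (0.53 and 0.57, adjusted p = 0.0773 and 0.0668). The TMD8 fall at day 6 was lost without day 0 replicate 1 (-0.31, adjusted p = 0.083) and without day 6 replicate 1 (-0.31, adjusted p = 0.0573). Of the 15 rows around RB1 in RefSeq's order, 8 were at 1 FPKM or more in every library of both lines, among them ITM2B at 12.1 to 16.8 FPKM in OCI-Ly7 and 62.3 to 78.2 FPKM in TMD8. Next before RB1 in this order, which sorts rows by start, LINC00441 was at 0 in OCI-Ly7 and at most at 0.108 FPKM in TMD8. LPAR6, next after RB1, lay at 0 to 0.0559 FPKM in OCI-Ly7 and 0.095 to 0.324 FPKM in TMD8. The order does not tell a row within RB1 from a row beside it. LINC00462 was at 0 in OCI-Ly7 and at 1.79 to 5.69 FPKM in TMD8. These rows too were picked after the level of RB1 was seen.

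RBL1, whose window held the E2F strings above, was lower in OCI-Ly7 at day 0 by 0.44 on the log2 scale (SE 0.121, adjusted p = 0.00981). That call was lost without TMD8 day 0 replicate 1 (-0.32, adjusted p = 0.0821) and without OCI-Ly7 day 0 replicate 1 (-0.31, adjusted p = 0.0797). In OCI-Ly7 RBL1 had 4.75 and 5.94 FPKM at day 0, 5.57 and 5.12 FPKM at day 3 and 4.09 and 4.07 FPKM at day 6. The day 6 libraries lay below the other 4, with a change of -0.31 (adjusted p = 0.137). In TMD8 it had 8.34 and 6.9 FPKM at day 0, 5.75 and 5.1 FPKM at day 3 and 5.37 and 5.99 FPKM at day 6. RBL1 fell there at day 6 by 0.36 (SE 0.116, adjusted p = 0.0386), and after scaling its change was -0.05 (adjusted p = 0.697). This call was lost without day 0 replicate 1 (-0.24, adjusted p = 0.217), day 6 replicate 1 (-0.30, adjusted p = 0.13) and either day 3 library (-0.36, adjusted p = 0.0557 and 0.0558). Of the summed FPKM of RB1, RBL1 and RBL2, RB1 made up 12.1% to 16.9% in OCI-Ly7 and 79.0% to 81.8% in TMD8. That sum was 12.9 to 15.3 FPKM in OCI-Ly7 and 80.4 to 117 FPKM in TMD8.

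Counted over the members, limma called no day 3 change in OCI-Ly7 with FPKM as deposited (0 of 8, with 0.145% of all genes called) or after median-ratio scaling (0 of 8, with 0.118%). At an unadjusted p under 0.05 there were 3 of the 8 as deposited, with 6.85% of all genes, and 1 of the 8 after scaling, with 4.93%. The day 3 changes lay between -0.30 and 1.08, with CDKN2A highest and CDK4 lowest. At day 6 in OCI-Ly7, 3 of 8 were called, CDKN2A higher and CDK4 and CDK6 lower, with 11.4% of all genes called (218 higher and 1034 lower). After scaling there were 2 of 8, CDKN2A and CDK4, with 14.8% of all genes (739 higher and 887 lower). Between day 3 and day 6 in OCI-Ly7 none of the 8 was called on either scale, with 0.218% of all genes called as deposited and 8.75% after scaling. At an unadjusted p under 0.05 there were 2 of the 8 as deposited, with 26.3% of all genes, and 3 of the 8 after scaling, with 33.6%, both near the share of all genes.

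In TMD8 at day 3, 7 of 9 members were called lower, all but CCND2 and CCND3, with 43% of all genes called (157 higher and 4335 lower). After median-ratio scaling limma called 0 of 9, with 0.22% of all genes (15 higher and 8 lower), and 1 of the 9 at an unadjusted p under 0.05, with 12.6% of all genes. Each of these 7 calls was also lost without TMD8 day 0 replicate 1 or 2 or day 3 replicate 1 or 2, where 0 members were called. At day 6 in TMD8, 6 of 9 were called lower (CCND1, CDK6, CDKN1B, CDKN2C, RB1 and RBL1), with 55.6% of all genes called (407 higher and 5409 lower), a share near that of the members. After scaling 5 of 9 were called, with 28.9% of all genes (1611 higher and 1409 lower): CCND2, CCND3 and CDK4 higher, and CDK6 and CDKN2C lower. CDK6 and CDKN2C were thus the 2 members called lower in TMD8 on both scales. With FPKM as deposited, 2 members were called without TMD8 day 0 replicate 1 and 2 without day 6 replicate 1; CCND1 was lost with each of the 6 libraries left out, at -0.41 to -0.23, and RBL1 without 4 of them. From day 3 to day 6 in TMD8, 2 of 9 were called, CCND3 and CDK4, both higher, with 7.84% of all genes as deposited (353 higher and 467 lower). The same 2 were called after scaling, with 11.7% of all genes (686 higher and 533 lower).

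The difference of the day 6 changes between the lines could be tested for 7 members. CCND3 and CDK4 were lower and RB1 was higher in OCI-Ly7 minus TMD8, 3 of 7, with 24.7% of all genes called (1786 higher and 610 lower). After median-ratio scaling CCND3 and CDK4 were called, 2 of 7, with 32.7% of all genes (1559 higher and 1606 lower). For day 3, limma called 0 of 7, with 0.103% of all genes, and 3 of 7 at an unadjusted p under 0.05, with 10.6%. After scaling limma again called 0 of 7, with 0.0929% of all genes, and 1 of 7 at an unadjusted p under 0.05, with 7.48%.

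**Figure D4:**
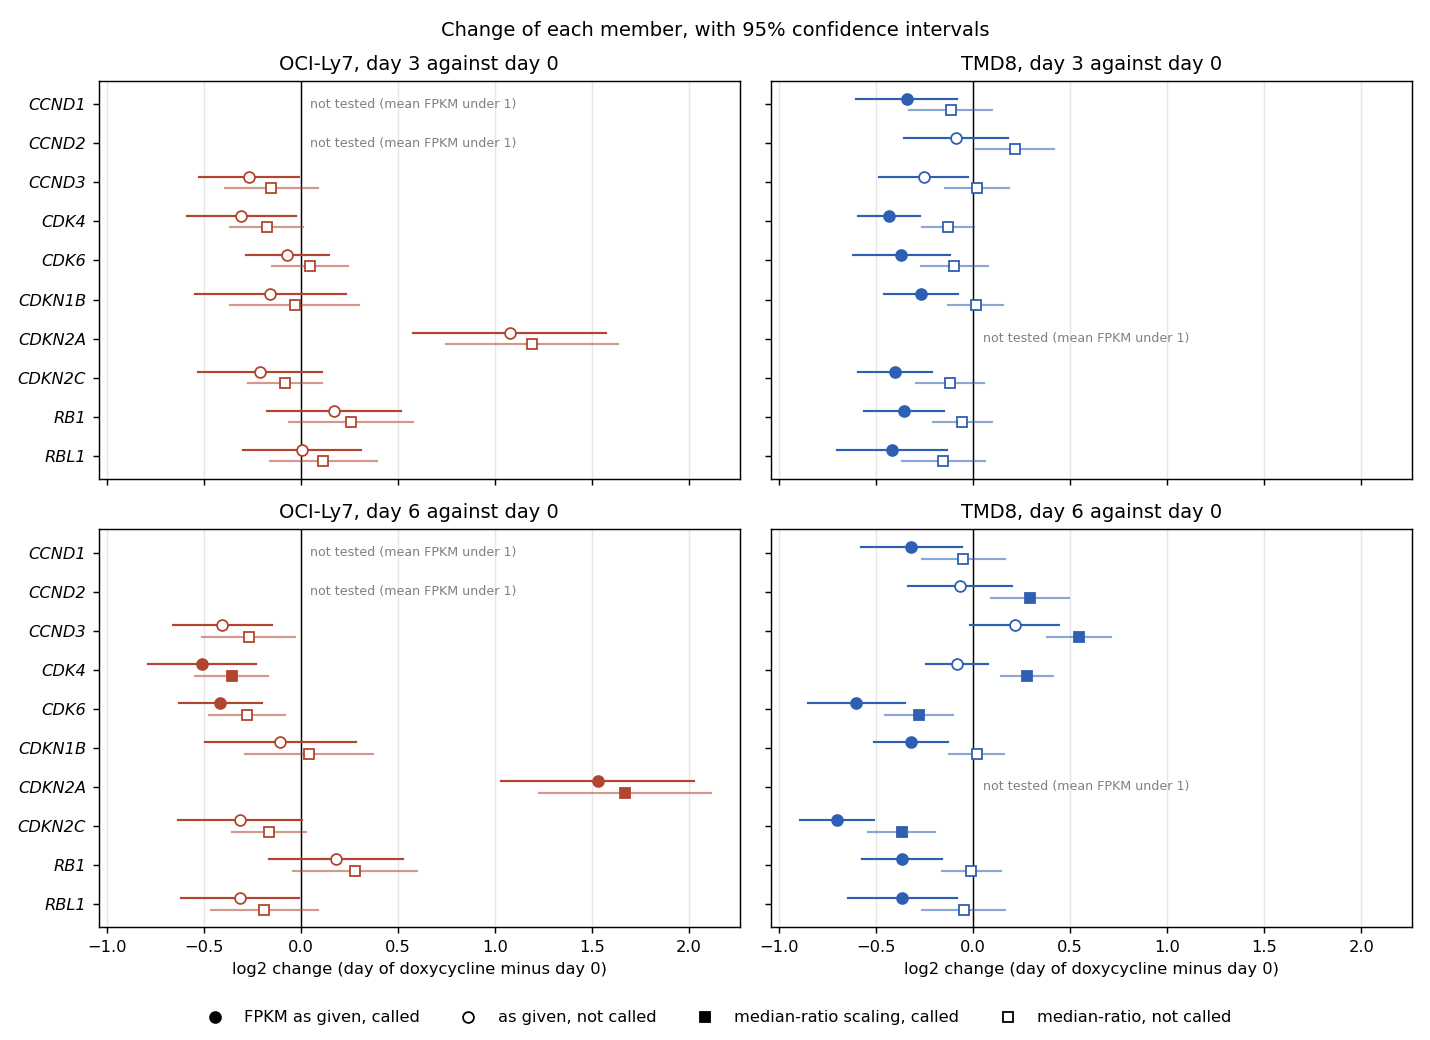
Log2 change of each member at day 3 (top) and day 6 (bottom) against day 0, OCI-Ly7 left and TMD8 right, with 95% confidence intervals; circles are FPKM as deposited, squares are after median-ratio scaling, and filled symbols were called. CDKN2A in OCI-Ly7 stands apart to the right, and in TMD8 the scaled values of CCND2, CCND3 and CDK4 lie above 0 at day 6 with those of CDK6 and CDKN2C below it.

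Among 37 other genes of the G1 pathway (cyclins E and A, CDK2, other inhibitors, E2F and DREAM genes, the CDK-activating kinase and the ligases of G1 regulators), 5 of the 35 tested fell at day 6 in OCI-Ly7 and 0 rose, with a median change of -0.25, while 9.39% of all genes fell and 1.98% rose. These were TFDP1, the partner of E2F factors, at -1.0 (adjusted p = 0.0345), the cyclin CCNE2 at -0.73 (adjusted p = 0.0351), SKP2, which targets p27 for destruction, at -0.70 (adjusted p = 0.0345), LIN9 and CUL1. After median-ratio scaling 4 fell and 0 rose, with a median of -0.12, while 8.05% of all genes fell and 6.71% rose. In TMD8 at day 6, 14 of 34 fell and 1, CCNE2, rose, with a median of -0.24 beside the -0.31 of all genes, of which 51.7% fell and 3.89% rose. After scaling 5 rose, 0 fell and the median was 0.10, while 15.4% of all genes rose and 13.5% fell. The 5 were CCNE2 at 0.66, CCNE1 at 0.40, E2F5 at 0.38, SKP1 at 0.30 and CDK7 at 0.26. CCNE2 had 10.6 and 9.57 FPKM at day 6 in OCI-Ly7 against 16 and 18.7 FPKM at day 0, and 3.95 and 4.25 FPKM at day 6 in TMD8 against 3.17 and 2.68 FPKM at day 0. Its day 6 changes differed by -1.11 (SE 0.156, adjusted p = 0.00373) between the lines.

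The other genes always reported here stood as follows. CDK2, the partner of cyclin E, changed by -0.42 at day 6 in OCI-Ly7 (adjusted p = 0.0572) and by -0.17 in TMD8 (adjusted p = 0.136), and CCNE1 by -0.21 in OCI-Ly7 (adjusted p = 0.164) and 0.05 in TMD8 (adjusted p = 0.644). CDKN1A (p21), a p53 target, lay at 3.43 to 4.94 FPKM in OCI-Ly7 and 56.9 to 67.6 FPKM in TMD8, and it fell at day 6 in TMD8 by 0.20 (adjusted p = 0.0402), where its change after scaling was 0.16 (adjusted p = 0.196). RBL2, the pocket protein of resting cells, fell at day 6 in TMD8 by 0.57 (adjusted p = 0.00827), with a change of -0.23 after scaling (adjusted p = 0.0841) and of 0.12 in OCI-Ly7 (adjusted p = 0.439). E2F1 had a change of 0.02 at day 6 in OCI-Ly7 (adjusted p = 0.928) and fell by 0.32 in TMD8 (adjusted p = 0.0171), where its change after scaling was 0.01 (adjusted p = 0.873). E2F2, at 13.1 to 16.7 FPKM in OCI-Ly7 and 0.786 to 1.05 FPKM in TMD8, was tested over the days in OCI-Ly7 alone, with a change of -0.11 (adjusted p = 0.619). E2F3 and E2F4 changed by -0.15 and -0.58 in OCI-Ly7 (adjusted p = 0.331 and 0.0638) and by -0.41 and -0.09 in TMD8 (adjusted p = 0.0884 and 0.583).

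Downstream, of 22 E2F targets of S phase entry, those called at day 6 were all lower in OCI-Ly7 on both scales. Those called at day 6 in TMD8 were mostly lower with FPKM as deposited and mostly higher after scaling. At day 6 in OCI-Ly7, 6 of 22 fell and 0 rose, with a median change of -0.38, against 9.39% of all genes called lower. After median-ratio scaling 7 fell, 0 rose and the median was -0.22, against 8.05% of all genes called lower. Of the 6 called with FPKM as deposited, RRM2, a subunit of ribonucleotide reductase, fell most, by 0.77 (adjusted p = 0.0345). PCNA, the replication clamp, fell least of them, by 0.48 (adjusted p = 0.0385). In TMD8 9 of 22 fell and 1, PCNA, rose with FPKM as deposited, with a median of -0.14, against 51.7% of all genes called lower and 3.89% called higher. After scaling 11 rose and 1, POLA1, fell, and the median was 0.22, against 15.4% of all genes called higher and 13.5% called lower. PCNA had 544 and 510 FPKM at day 6 in OCI-Ly7 against 715 and 752 FPKM at day 0, and 274 and 287 FPKM at day 6 in TMD8 against 226 and 209 FPKM at day 0. The groups did not overlap in either line, and its day 6 changes differed by -0.84 (SE 0.11, adjusted p = 0.003), or -1.0 after scaling. Over the 22 genes, the difference of the day 6 changes was called lower in OCI-Ly7 for 5 and higher for 1, with 6.3% of all genes lower and 18.4% higher, and after scaling lower for 12 and higher for 1, with 16.6% of all genes lower and 16.1% higher. In the same comparison CCND3 and CDK4 were lower on both scales.

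**Figure D5:**
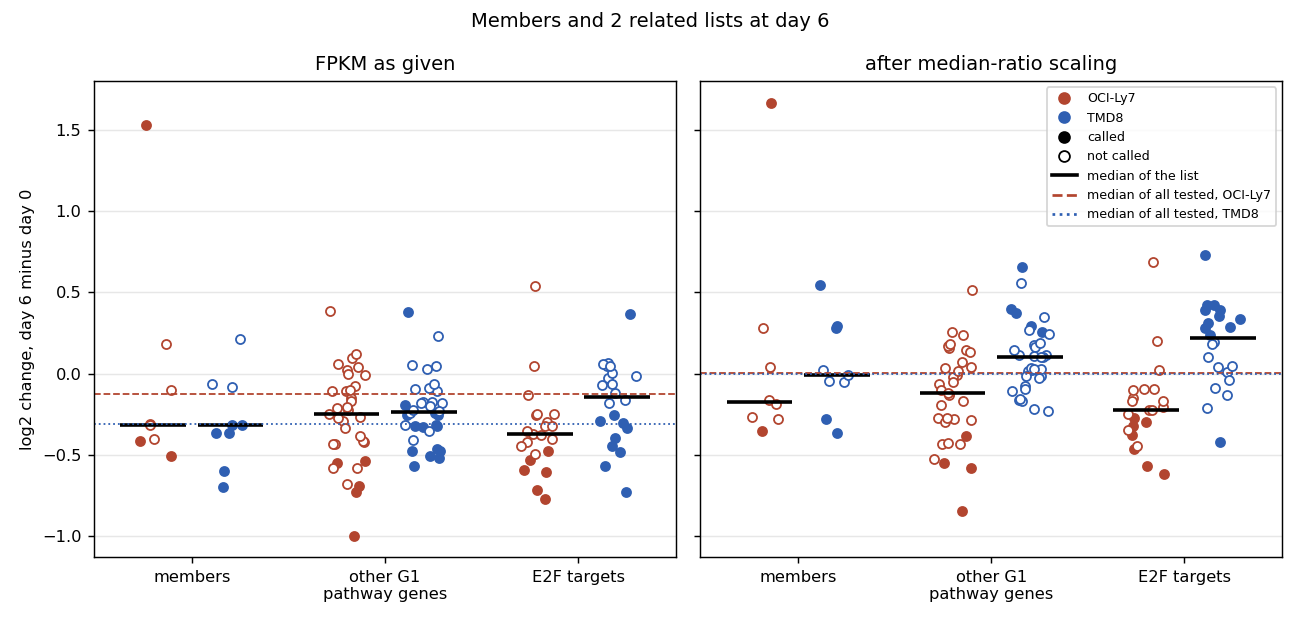
Log2 change at day 6 against day 0 of each tested member, each other G1 pathway gene and each E2F target (points, filled where called), OCI-Ly7 in red left of TMD8 in blue, with FPKM as deposited on the left and after median-ratio scaling on the right. Black bars are the medians of the lists, and the dashed red and dotted blue lines the medians of all genes tested in OCI-Ly7 and TMD8; after scaling the E2F targets have a median of -0.22 in OCI-Ly7 and 0.22 in TMD8.

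The genes with the most similar course were sought for each member kept in both lines, among 9688 genes over the 12 libraries, by the root mean square difference of log2(FPKM + 1) after the day 0 mean of each line was subtracted. For CDK4 these were RAN (0.0352), EIF5AL1 (0.042) and SLC25A5 (0.0546). For CDK6 they were FEM1B (0.0432), SRPK1 (0.0478) and PHF6 (0.0481), and for CDKN2C AHCYL1 (0.0478), MAP4 (0.0534) and DCAF7 (0.0556). CCND3 had no gene closer than PLSCR1 (0.0767), and RB1 none closer than MIEF2 (0.0663). The closest gene to CDKN1B was LSM14B (0.0533) and the closest to RBL1 was GPR180 (0.0643). CDKN2A could not be ranked, since TMD8 lists it at 0. The ranking used FPKM as deposited, so the shift of the median gene after day 0 enters these distances.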

How the data were processed

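RNA sequencing libraries were made with an Illumina TruSeq RNA kit, per the labels' protocols. Per the submitters' processing notes, HISAT and StringTie were run on the hg19 build; their versions are not given in the sources used here. Whether the kit marks strand is not stated, so overlapping and antisense genes cannot be told apart. The authors deposited FPKM, 1 value for each gene symbol and library, in 1 table per line. Read counts were not used and the absolute depth is unknown. A relative depth, read from the most common ratio of small values to the first day 0 library of the line, was 0.543 to 0.737 in the later TMD8 libraries and 0.768 to 0.908 in the later OCI-Ly7 libraries, so low values there rest on fewer fragments.

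Libraries were grouped by line and day from the titles. Genes averaging 1 FPKM or more over the 6 libraries of a line were tested with limma 3.58.1 (R 4.3.3) on log2(FPKM + 1) with a mean-dependent trend. The 3 days of a line shared 1 estimate of the spread (3 residual degrees of freedom), and the lines were compared in 1 fit of 12 libraries (6 residual degrees of freedom). The pseudocount of 1 understates changes of low genes. The Benjamini-Hochberg method was applied over all genes of a test, with a threshold of 0.05. Median-ratio scaling brought the median over genes of the ratio to the gene's geometric mean to the same value in each library. The code was tested on simulated data.

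The alternatives were median-ratio scaling, an equal FPKM sum, pseudocount 0.1, a filter at 5 FPKM or none, no trend, a replicate block, a fit of only the 2 days compared, and each library left out in turn. All members are named. Of each other list some called genes are named, at most 6 per comparison and not always those with the largest changes. CCNE1, CCNE2, CDK2, CDKN1A, RBL2 and E2F1 to E2F4 were named whether called or not. One gene of the B cell marker list is not reported here. The members, lists and rules were chosen with earlier results of these data known. RefSeq supplied promoters, matched by symbol, and the order of neighbouring genes. GENCODE v29 supplied exon overlaps and the transcripts set against the starts. Both are of another build than the files, so no coordinates were joined.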

Additional observations from a re-analysis of the deposited data

Results flagged for a closer look

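For 3 members the day 6 change differed between the lines by the test of the difference itself, OCI-Ly7 minus TMD8 in limma over 12 libraries. CCND3 had a difference of -0.62 (adjusted p = 0.0143), with both day 6 libraries below both day 0 libraries in OCI-Ly7 and above them in TMD8. CDK4 had a difference of -0.43 (adjusted p = 0.0397). RB1 had a difference of 0.55 (adjusted p = 0.0362), which after median-ratio scaling was 0.33 (adjusted p = 0.0778). PRMT5 itself had a difference of -0.77 (adjusted p = 0.01), and its part in these differences was not tested.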

How the results depend on the processing

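The members' changes were recomputed under the alternative settings, which gave 1156 values over all members, comparisons and settings. Of these values, 962 kept their direction and side of the threshold. Another 144 kept the direction and lost the call, 5 gained one and 45 changed sign. A pseudocount of 0.1 and a filter at 5 FPKM changed no call of a member they tested. After median-ratio scaling the count of members called was 2 at day 6 in OCI-Ly7, 5 at day 6 in TMD8 and 2 for the difference of the day 6 changes, against 3, 6 and 3 with FPKM as deposited. The settings that moved a count of members by over 1.5 times were as follows. At day 6 in OCI-Ly7 (3) it was 0 with no filter, 1 with the replicate block and 0 to 2 with a library left out. At day 3 in TMD8 (7) it was 0 after median-ratio scaling, 0 at an equal sum, 3 with no filter, 0 with the replicate block and 0 to 7 with a library left out. At day 6 in TMD8 (6) it was 3 at an equal sum and 2 to 5 with a library left out. From day 3 to day 6 in TMD8 (2) it was 1 at an equal sum, that 1 being lower, 0 with no filter, 1 with no trend, 0 with the replicate block, 0 in the 2 days alone and 0 with any library left out. For the difference of the day 6 changes (3) it was 5 with no filter, 1 with the replicate block and 0 to 4 with a library left out. Over all genes, leaving out a day 0 or day 6 library of OCI-Ly7 left 16 to 40 of 1252 calls at day 6, no filter left 41 and the replicate block 733. From day 3 to day 6 in OCI-Ly7 the 24 calls became 964 after median-ratio scaling and 556 at an equal sum. At day 3 in TMD8 the 4492 calls became 23 after median-ratio scaling, 36 at an equal sum, 2705 with no filter, 13 with the replicate block and 30 to 65 without a day 0 or day 3 library. At day 6 in TMD8 the 5816 calls became 3020 after median-ratio scaling and 2402 without day 0 replicate 1. From day 3 to day 6 in TMD8 the 820 calls became 1324 at an equal sum, 359 with no filter, 58 with the replicate block, 285 in the 2 days alone, 37 and 41 without a day 3 library and 203 to 420 without another. For the difference of the day 6 changes the 2396 calls became 1391 at a filter of 5 FPKM and 1012 to 1533 without either day 0 library of a line or without TMD8 day 6 replicate 1, and for day 3 the 10 calls became 36 with no filter, 5 with the replicate block and 7 to 32 with a library left out. Leaving out a library moved the 16 calls at day 3 in OCI-Ly7 to 12 to 30, and the 24 from day 3 to day 6 to 26 to 47.

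The replicate numbers are shared by the groups, but the labels give them no meaning. The correlation of deviations of same-numbered libraries between days was 0.13, -0.08 and 0.11 in OCI-Ly7 and -0.10, -0.15 and 0.08 in TMD8, so the numbers were not taken as pairs. With the replicate block, 15 changes of members lost their call.

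The sign changes all concern values that were not called with FPKM as deposited, apart from CDKN1B at day 3 and day 6 in TMD8. After median-ratio scaling they were CDK6 at day 3 (0.05) and CDKN1B at day 6 (0.04) in OCI-Ly7; in TMD8, at day 3, CCND2 (0.21), CCND3 (0.02) and CDKN1B (0.01); at day 6, CCND2 (0.29), CDK4 (0.28) and CDKN1B (0.02); from day 3 to day 6, CDKN1B (0.01) and RB1 (0.05); and between the lines CDK4 (-0.02) and CDKN1B (-0.03) for day 3 and RBL1 (-0.10) for day 6. At an equal sum they were CDK6 at day 3 (0.05) and RB1 from day 3 to day 6 (-0.01) in OCI-Ly7, and in TMD8 CCND2 at day 3 (0.11) and day 6 (0.01) and, from day 3 to day 6, CCND1 (-0.06), CCND2 (-0.10) and RBL1 (-0.05). With a library left out, the ranges that cross 0 were, in OCI-Ly7, RBL1 at day 3 (-0.13 to 0.14), CDKN1B at day 6 (-0.31 to 0.10) and, from day 3 to day 6, CDKN1B (-0.16 to 0.26), CDKN2C (-0.26 to 0.04) and RB1 (-0.04 to 0.05). In TMD8 they were CCND2 at day 6 (-0.21 to 0.08) and, from day 3 to day 6, CCND1 (-0.02 to 0.07), CCND2 (-0.12 to 0.16), CDKN1B (-0.11 to 0.02), RB1 (-0.09 to 0.07) and RBL1 (-0.02 to 0.13). Between the lines they were CCND3 for day 3 (-0.11 to 0.08) and RBL1 for day 6 (-0.09 to 0.18). Scaling removes the shift of the median gene by construction; for the rest the cause was not tested. With 1 library of a group left out, the spread of the remaining one was taken from the other groups.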
